A study of Mus musculus with 12 samples.

Results

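The set comprised 40 genes of cell division, followed through 12 bulk RNA libraries of mouse meninges: 15 genes of S phase, when DNA is copied, and 25 genes of mitosis, when the copies are separated. They were chosen by symbol, are 40 of 27575 genes that could be joined over all libraries, and all 40 were among the 13943 genes with enough counts to be tested. The libraries fall into 4 groups of 3. All are from male C57BL/6J mice and carry the cell type label monocyte, a kit for monocyte isolation having been used on the tissue. The first group was unstressed. The other groups went through 18 days of restraint and then received vehicle, psilocybin or MDMA, and tissue was taken 24 hours later. Neither drug's dose is stated in the labels, and nothing in the labels says that the 3 libraries of a group came from separate mice, so p-values measure only the spread between these libraries. The study asked how such cells respond to chronic stress and to psychedelics.

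A cell that enters division first loads the helicase made of Mcm2 to Mcm7 onto its DNA, with the help of Cdt1, and activates it with Cdc45 and the GINS complex. E2F factors drive the genes of this step. Mitosis then runs on cyclin B and Cdk1, on kinases such as Plk1, Aurka and Aurkb, and on motor proteins that build the spindle, and most mitosis transcripts accumulate only in cells that are about to divide. Blood monocytes are largely not dividing, whereas their precursors in bone marrow divide rapidly.

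The deposited values are raw read counts. Library totals were 2949163 to 4504400 counts for unstressed, 2601848 to 4079069 for psilocybin and 2859534 to 5136953 for MDMA, while the vehicle libraries held 3623830, 807725 and 1954222. Vehicle libraries 1 and 3 stood apart: 29.2% and 34.2% of the genes tested had no count there, against 11.1% in vehicle library 2 and 0.294% to 6.94% in the other 9. The unstressed files were counted on another gene annotation than the stressed ones, so each comparison with the unstressed group crosses annotations; the members' own exon bases differed between them by a factor of 0.894 to 3.62 (median 1.32, GENCODE over RefSeq), by over 1.5 for 13 members, and were nearly the same for 11. The monocyte label was only partly borne out. Summed markers of choroid plexus epithelium reached 14820 to 142100 CPM (counts scaled to library size by TMM), whereas 8 classical monocyte markers summed to 186.2 to 1382 CPM and 5 defining leukocyte genes to 105.7 to 415.5 CPM. Ly6c2, a defining marker of classical monocytes, had 14, 30 and 3 counts in unstressed, 0, 20 and 55 in vehicle, 32, 15 and 87 after psilocybin and 128, 53 and 259 after MDMA. In bulk RNA of such mixed tissue, fewer cells of a type and less RNA per cell cannot be told apart.

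Promoters are shown as a description only. Of the 4 printed, only that of Cdk1 belongs to the 13 mitosis genes with no count in any vehicle library. Of the 40 members, 33 had a promoter in RefSeq (GRCm38.p6), 12 of S phase and 21 of mitosis. The 250 bases before the start are printed 5′ to 3′ on the gene's strand for a pair of mitosis genes and a pair of helicase genes, with capitals for the letters of 3 motifs searched on both strands: the cell cycle homology region (TTTGAA, with TTCGAA as its other form), the CCAAT box and E2F (TTTCCCGC, TTTCGCGC, TTTGCCGC or TTTGGCGC). E2F matches overlap each other in Mcm6 and Mcm5.
Top2a, chr11:99024190-99024439, minus strand: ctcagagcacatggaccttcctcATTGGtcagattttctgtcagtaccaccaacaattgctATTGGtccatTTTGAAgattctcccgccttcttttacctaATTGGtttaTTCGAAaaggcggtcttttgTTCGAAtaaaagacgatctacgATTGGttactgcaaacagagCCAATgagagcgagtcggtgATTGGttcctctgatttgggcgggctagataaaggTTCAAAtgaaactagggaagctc
Cdk1, chr10:69352913-69353162, minus strand: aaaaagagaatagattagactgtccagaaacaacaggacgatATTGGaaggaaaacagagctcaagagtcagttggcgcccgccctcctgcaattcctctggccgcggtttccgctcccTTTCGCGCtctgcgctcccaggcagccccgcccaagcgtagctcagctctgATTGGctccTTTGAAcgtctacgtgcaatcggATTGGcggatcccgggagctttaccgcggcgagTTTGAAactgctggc
Mcm6, chr1:128359706-128359955, minus strand: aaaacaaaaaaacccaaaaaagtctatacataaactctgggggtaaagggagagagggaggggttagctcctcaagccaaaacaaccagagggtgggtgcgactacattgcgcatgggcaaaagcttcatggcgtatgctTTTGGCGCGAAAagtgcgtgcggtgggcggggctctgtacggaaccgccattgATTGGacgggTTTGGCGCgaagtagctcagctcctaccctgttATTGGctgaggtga
Mcm5, chr8:75109259-75109508, plus strand: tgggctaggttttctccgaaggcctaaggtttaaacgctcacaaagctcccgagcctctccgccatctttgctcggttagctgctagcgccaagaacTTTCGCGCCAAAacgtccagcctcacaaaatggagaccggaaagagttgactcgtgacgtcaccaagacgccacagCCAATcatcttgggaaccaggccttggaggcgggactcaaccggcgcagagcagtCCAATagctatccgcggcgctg
These promoters, motifs and windows were chosen with the matches in view. Over 300 bases, from 250 before to 50 after the start, 17 of 21 mitosis promoters (81.0%) and 3 of 12 S phase promoters (25%) held the cell cycle homology letters, beside 13.5% of the 10694 promoters of genes tested and 18.0% of all 19422. In the 250 bases before the start alone the mitosis share was 9 of 21 (42.9%), beside 12.1% and 16.2%. CCAAT was in 90.5% of mitosis and 66.7% of S phase promoters (38.2% of genes tested, 38.6% of all). E2F letters were in 5 of 12 S phase promoters (41.7%; 25% before the start alone) and 1 of 21 mitosis promoters (4.76%), beside 3.95% of genes tested and 2.66% of all. Nusap1 and Birc5 held none of these letters in the window, and Ccnb1 held only CCAAT. Mki67 and Ccnb2, whose group mean was highest in vehicle, held both cell cycle homology and CCAAT letters. A match is a description of letters, not a binding site.

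Far fewer members were detected in the vehicle libraries than elsewhere. Of 40 members, 12, 23 and 13 had a count in vehicle libraries 1 to 3, against 34 to 38 of them in each unstressed library and 39 to 40 after either drug. The gap lay mostly in mitosis: 88%, 64% and 76% of the mitosis genes were at 0 in the 3 vehicle libraries, and 40%, 6.67% and 53.3% of the S phase genes. Thinned to the smallest library's counts, the expected number with a count was 9.3, 23 and 9.54 for vehicle and 27.2 to 40 for the other 9 libraries. Of the 25 mitosis genes alone it was 2.22, 9 and 3.69 for vehicle. In the other 9 libraries it ran from 13.9 (unstressed library 3) to 25. The shares over all genes tested given below are not matched to the mitosis genes for level. The missing members accompanied a general loss of genes in vehicle libraries 1 and 3; in vehicle library 2, which had the smallest total, 64% of mitosis genes were at 0 beside 11.1% of all genes tested. How far gene loss in these libraries accounts for it was not tested.

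**Figure D1:**
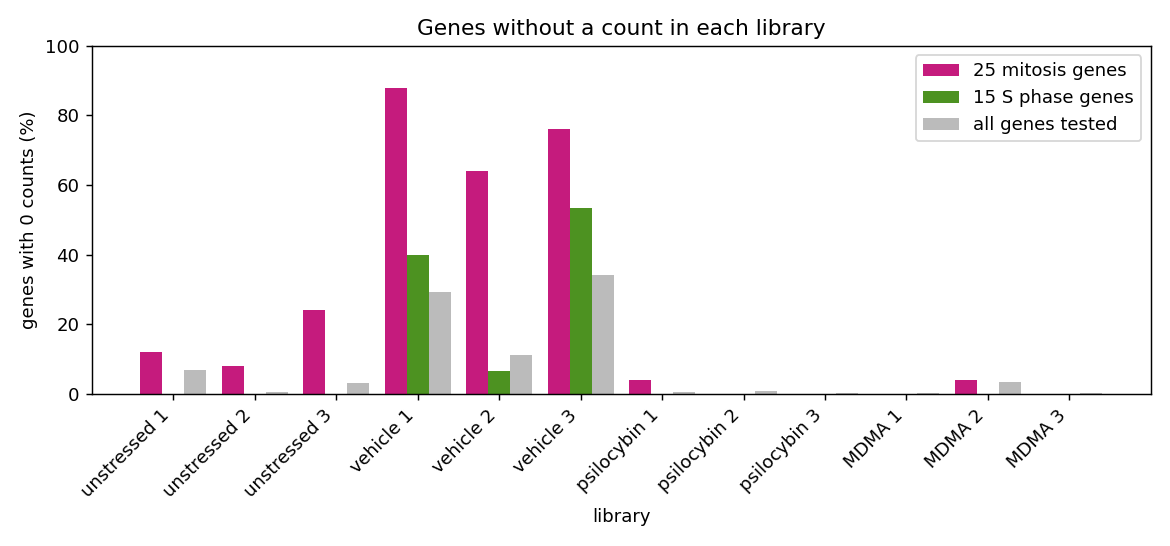
Share of genes with 0 counts in each of the 12 libraries (y axis, %), for the 25 mitosis genes, the 15 S phase genes and all 13943 genes tested. The 3 vehicle libraries have 64% to 88% of mitosis genes at 0, above both other bars of the same library.

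The helicase and its loaders were detected in all groups but unevenly in vehicle. Per kilobase, Pcna, the sliding clamp of the replication fork, was the most abundant S phase gene (20.1 CPM per kb averaged over the 12 libraries), followed by Mcm4 (12.7), Mcm6 (11.7) and Rrm2 (11.5). The order below Pcna differed between groups: in MDMA, Rrm2 (23.0 CPM per kb) was above Mcm4 (17.9), and in vehicle Mcm3 (9.53) was above all 3. Pcna had 57, 133 and 115 counts in unstressed libraries 1 to 3, 144, 14 and 41 in vehicle, 154, 142 and 249 after psilocybin and 187, 222 and 240 after MDMA. In CPM its group means ± SD (n = 3) were 26.0 ± 6.34, 30.0 ± 14.2, 54.1 ± 4.91 and 58.8 ± 22.9, and both drug groups lay above the unstressed one without overlap. Pcna has 2400 own exon bases in GENCODE, matched to the stressed files, and 1260 in RefSeq. Per kb the means were 20.66, 12.52, 22.55 and 24.48 in the same order, so both drug groups were then near unstressed.

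Mcm6, a helicase subunit, had 172, 125 and 285 counts in the unstressed libraries, 347, 0 and 1 in vehicle, 151, 56 and 286 after psilocybin and 214, 135 and 788 after MDMA. Mcm4 had 72, 236 and 277, then 4, 32 and 18, then 133, 130 and 279, then 247, 75 and 562 counts in the same order. The vehicle libraries thus held Mcm6 almost only in library 1. In CPM, Mcm4 was 1.23, 36.1 and 13.2 in the vehicle libraries, and the second of these lay within the range of unstressed and MDMA. Rrm2, which makes deoxynucleotides, had 125, 35 and 21 counts in unstressed, 1, 42 and 0 in vehicle, 38, 29 and 212 after psilocybin and 211, 54 and 654 after MDMA, with overlapping groups.

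A different vehicle library was high for different replication genes. Vehicle library 1 held 223 counts of Mcm2 and 128 of Tyms, which makes thymidylate, and library 3 held 0 of each. Vehicle library 3 held 129 counts of Mcm3 and library 1 held 0. Cdt1 (15 counts), Gins2 (11 counts) and Cdc45 (15 counts) were found in vehicle library 2 and at 0 or 1 in the other two. Over the members, the correlation of log2(CPM + 1) between vehicle libraries was 0.113 to 0.307, against 0.776 to 0.842 between psilocybin, 0.531 to 0.889 between MDMA and 0.509 to 0.78 between unstressed libraries (Pearson's r over 40 genes, a description).

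Ccne2, the cyclin that starts S phase, was singled out after its values were seen. It had 10, 14 and 8 counts in unstressed, 0, 1 and 39 in vehicle, 49, 53 and 93 after psilocybin and 92, 173 and 256 after MDMA. In CPM the means were 2.88 ± 0.892, 9.94 ± 16.2, 19.3 ± 3.29 and 45.2 ± 21.1, and unstressed, psilocybin and MDMA did not overlap. Ccne2 has 2886 own exon bases in GENCODE and 1701 in RefSeq, and per kb the means were 1.692, 3.443, 6.69 and 15.66. Against unstressed, the log2 difference was 2.73 ± 1.36 (SE) for psilocybin and 3.96 ± 1.43 for MDMA, with edgeR adjusted p of 0.825 and 0.594. Mcm5 had 31, 12 and 39 counts in unstressed, 0, 2 and 0 in vehicle, 20, 10 and 61 after psilocybin and 63, 11 and 255 after MDMA, and was the S phase gene whose vehicle libraries lay below every other library.

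**Figure D2:**
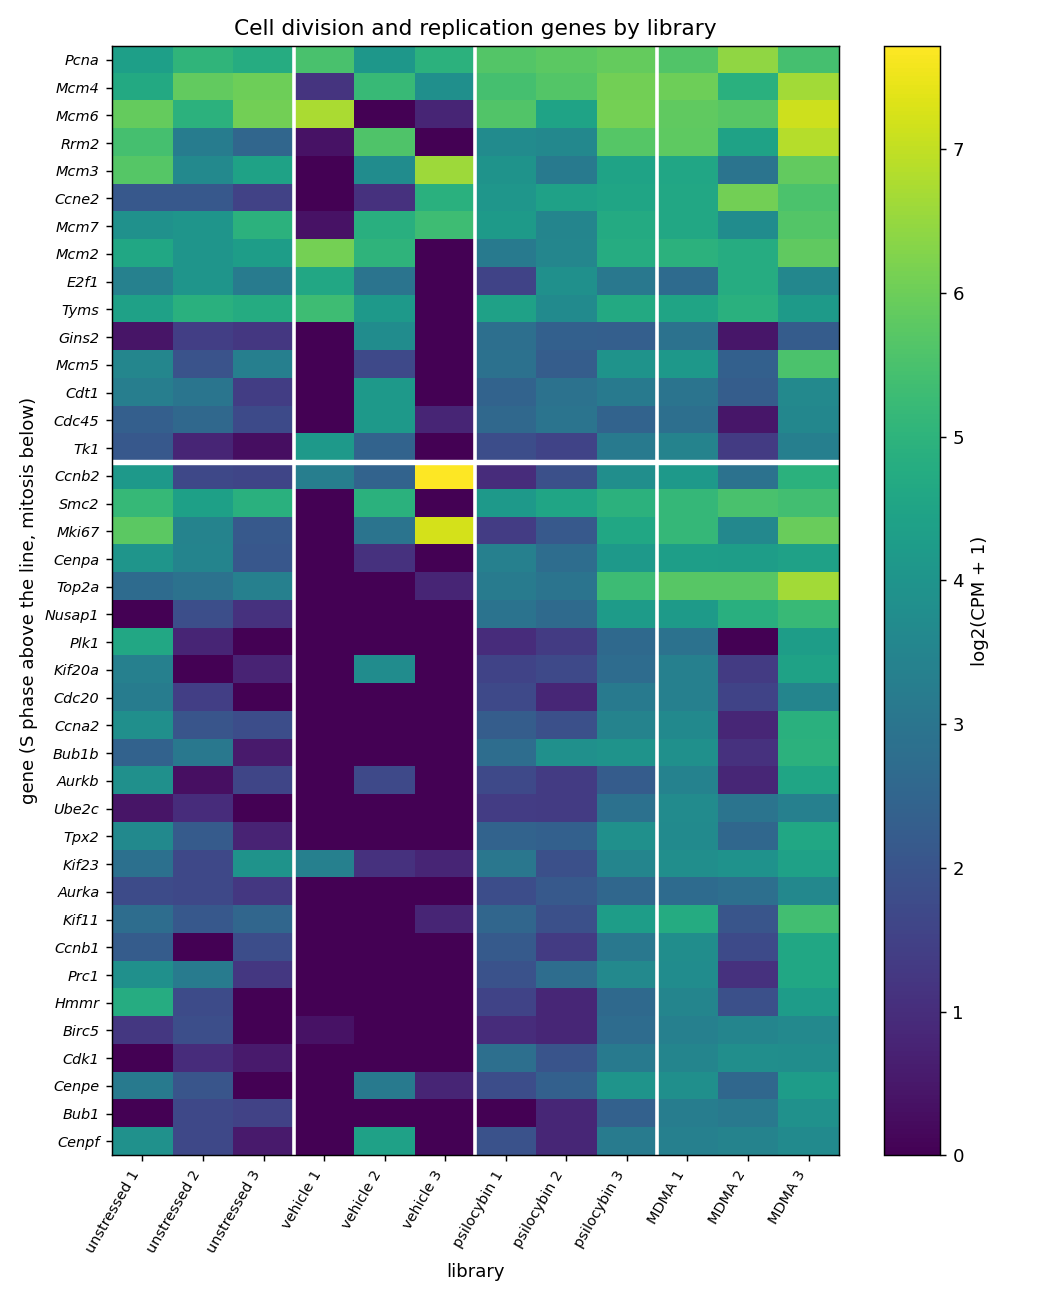
Level of each member in each library as log2(CPM + 1), with S phase genes above the white line and mitosis genes below. The 3 vehicle columns are at 0 for most mitosis genes, and MDMA library 3 has the highest value of all libraries for 22 of 40 genes.

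Of the mitosis genes, 13 had no count in any vehicle library: Aurka, Bub1, Bub1b, Ccna2, Ccnb1, Cdc20, Cdk1, Hmmr, Nusap1, Plk1, Prc1, Tpx2 and Ube2c. No member was at 0 throughout another group. Among all genes tested, 810 (5.81%) were at 0 throughout vehicle. These 13 summed per gene to 5 to 88 counts in the unstressed group, 20 to 115 in psilocybin and 100 to 343 in MDMA. Since 3 counts over the vehicle group would be 0.543 CPM, the MDMA level was at least 15.2-fold to at least 52.1-fold higher than vehicle across the 13, and the psilocybin level at least 3.68-fold to at least 21.2-fold higher. These bounds cover counting error only.

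Top2a, the topoisomerase that untangles sister chromosomes (chr11:98992943-99024189, minus strand, GENCODE vM21), had 16, 27 and 40 counts in unstressed, 0, 0 and 1 in vehicle, 26, 18 and 162 after psilocybin and 197, 135 and 566 after MDMA. In CPM the means were 7.07 ± 1.95, 0.245 ± 0.425, 17.9 ± 17.8 and 67.8 ± 28.2. Every vehicle library lay below every other library, and every MDMA library above every other. Its promoter, printed above, holds 4 cell cycle homology and 6 CCAAT matches.

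Cdk1, the kinase that starts mitosis, had 0, 4 and 2 counts in unstressed, 0, 0 and 0 in vehicle, 19, 8 and 33 after psilocybin and 40, 34 and 72 after MDMA. Its CPM means were 0.476 ± 0.483, 0, 5.65 ± 2.41 and 12.1 ± 1.43, and unstressed, psilocybin and MDMA did not overlap. In CPM the same gaps held for Ube2c, which tags mitotic cyclins for destruction. It had 1, 4 and 0 counts in unstressed, 0, 0 and 0 in vehicle, 5, 4 and 27 after psilocybin and 47, 18 and 52 after MDMA. Ube2c has 2008 own exon bases in GENCODE and 931 in RefSeq. Per kb its means were 0.4675 in unstressed, 1.581 in psilocybin and 4.706 in MDMA.

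Cyclin B2 (Ccnb2) and the proliferation marker Mki67 had their highest group mean in vehicle, unlike the other 23 mitosis genes. Ccnb2 had 49, 9 and 9 counts in unstressed, 29, 4 and 285 in vehicle, 3, 7 and 55 after psilocybin and 65, 17 and 166 after MDMA. Mki67 had 158, 41 and 15, then 0, 6 and 200, then 5, 9 and 98, then 131, 29 and 347 counts. Their vehicle mean rested on library 3, where they made up 99.2% of the 489 mitosis counts. The other cyclin B gene, Ccnb1, had no count there.

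At the kinetochore, Cenpa, the histone that marks centromeres, had 45, 42 and 14 counts in unstressed, 0, 1 and 0 in vehicle, 29, 15 and 72 after psilocybin and 74, 49 and 116 after MDMA. Birc5 had 4, 11 and 0, then 1, 0 and 0, then 3, 2 and 24, then 36, 27 and 64 counts, and the checkpoint kinase Bub1 had 0, 9 and 8, then 0, 0 and 0, then 0, 2 and 18, then 33, 20 and 78. In CPM, all 3 genes were higher in every MDMA library than in every library of any other group. Cenpa has 5860 own exon bases in GENCODE and 1617 in RefSeq. Per kb its mean was 5.918 in unstressed and 3.333 in MDMA, so for Cenpa the order against unstressed depends on length scaling. Cenpf (18 counts), Cenpe (7 counts) and Kif20a (11 counts) were seen in vehicle library 2.

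Among spindle genes, Nusap1, which binds microtubules, had 0, 11 and 5 counts in unstressed, 0, 0 and 0 in vehicle, 21, 14 and 76 after psilocybin and 67, 74 and 202 after MDMA. Aurka, the centrosome kinase, had 7, 9 and 6, then 0, 0 and 0, then 8, 9 and 21, then 21, 16 and 63 counts. Prc1, which bundles the central spindle, had 40, 34 and 6, then 0, 0 and 0, then 9, 15 and 48, then 48, 3 and 130. Vehicle was below all other libraries for these genes except Nusap1, which unstressed library 1 also lacked. Smc2, a condensin subunit, had 103, 82 and 126 counts in unstressed, 0, 26 and 0 in vehicle, 52, 58 and 127 after psilocybin and 132, 115 and 230 after MDMA. In CPM, unstressed library 1 was the highest of all 12 for Hmmr (26.6 CPM, 78 counts) and Plk1 (23.5 CPM, 69 counts), both at 0 in unstressed library 3.

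**Figure D3:**
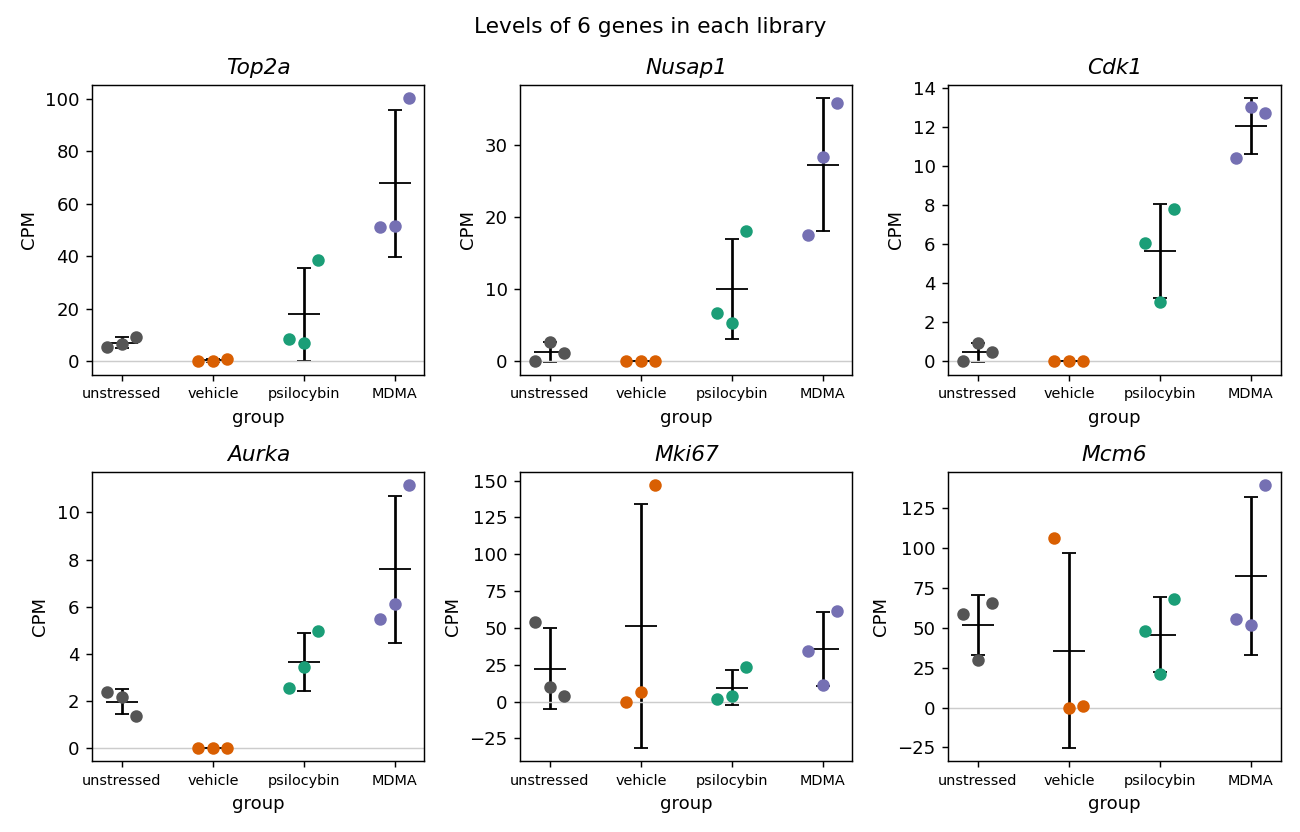
CPM of Top2a, Nusap1, Cdk1, Aurka, Mki67 and Mcm6 in each library, 1 point per library, with mean and SD bars (n = 3 per group); the 6 genes were chosen after their values were seen. Top2a, Nusap1, Cdk1 and Aurka are at or near 0 in all vehicle libraries, while Mki67 and Mcm6 each rest on 1 vehicle library.

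The MDMA group had the highest mean of both sums. Summed CPM of the 15 S phase genes were 293.2, 234.7 and 281.6 in unstressed, 301.3, 249.4 and 207.4 in vehicle, 255, 234.2 and 409.3 after psilocybin and 397.2, 364.1 and 715 after MDMA. Mitosis sums were 292.5, 98.41 and 82.23 in unstressed, 18.41, 85.78 and 359.6 in vehicle, 101.9, 100.7 and 306.2 after psilocybin and 389.1, 253.8 and 657.4 after MDMA. The third library was the highest of both drug groups on both sums. Without Mki67 and Ccnb2, left out after their values were seen, mitosis means ± SD (n = 3) were 28.98 ± 39.55 CPM in vehicle, 128.3 ± 81.25 in unstressed, 154.7 ± 99.92 in psilocybin and 380.3 ± 169.1 in MDMA. In CPM, the MDMA group mean was the highest for 10 of 15 S phase and 23 of 25 mitosis genes, and the vehicle mean the lowest for 6 and 21. Per kb, the unstressed mean was above the MDMA mean for Mcm2 and Cdt1 of these S phase genes. The same held for Cenpa, Kif23, Hmmr and Prc1 of these mitosis genes.

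**Figure D4:**
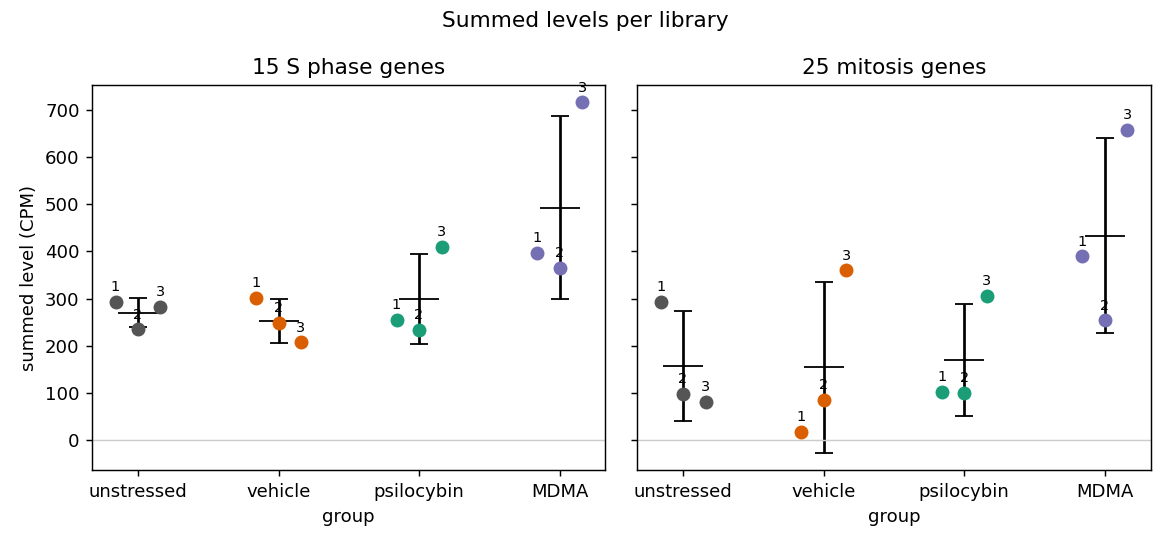
Summed CPM of S phase genes (left) and mitosis genes (right) per library, 1 point per library, numbered by replicate, with mean and SD bars (n = 3 per group). MDMA libraries run from 364.1 to 715 CPM for S phase and 253.8 to 657.4 for mitosis, and vehicle mitosis sums spread from 18.41 to 359.6.

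After stress with vehicle, no member passed the edgeR test against unstressed (0 of 40, beside 3.35% of the 13943 genes tested). At an unadjusted p under 0.05, 14 members were lower and 1 was higher, beside 14.1% and 4.41% of genes tested, and 9 lay below the unstressed libraries without overlap, beside 17.2%. The median log2 difference was 0.17 for S phase and -4.86 for mitosis genes (-1.82 with genes at 0 set to their bound), beside -0.18 over all genes tested. The smallest adjusted p-values in edgeR were 0.0638 for Top2a (1 count over the vehicle group against 83), 0.0658 for Cenpa (1 against 101) and 0.0701 for Prc1 (0 against 80, at least 12.9-fold lower). The ratio of CPM was 40.1 for Top2a (95% counting interval 6.99 to 1601) and 48.7 for Cenpa (8.55 to 1944), with unstressed the higher. Leaving out vehicle library 2 gave 10 members past the threshold, all lower in vehicle, which is 25% of members beside 22.1% of all genes tested in that fit.

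Psilocybin against vehicle likewise had no member past the threshold (0 of 40, beside 0.0143% of genes tested). At an unadjusted p under 0.05, 17 members were higher and 1 lower, beside 12.1% and 3.79% of genes tested, and 19 lay above vehicle without overlap, beside 21.1%. Mitosis genes made up 16 of those 17 and 16 of those 19. In median, the log2 difference was 0.27 for S phase and 6.10 for mitosis genes (2.81 with bounds), beside 0.31 over all genes tested. Top2a had 206 counts against 1 (CPM ratio 114, counting interval 20.2 to 4514, edgeR adjusted p = 0.0863), Aurka 38 against 0 (at least 6.99-fold higher, adjusted p = 0.0944) and Nusap1 111 against 0 (at least 20.4-fold higher, adjusted p = 0.0974). Psilocybin library 3 held 162 of the 206 Top2a counts: the fitted log2 difference of 6.19 became 4.95 without that library and 8.95 without vehicle library 3. Without vehicle library 2, 14 members were called higher and 1, Ccnb2, lower, beside 20.9% and 3.57% of all genes tested in that fit. Without vehicle library 3, Top2a passed, beside 0.965% of genes.

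MDMA against vehicle gave the only member past the threshold: Top2a rose (898 counts against 1, CPM ratio 409, counting interval 73.2 to 16160, fitted log2 difference 8.11 ± 1.43 SE, edgeR adjusted p = 0.0466, higher in 3 of 3 libraries). That is 1 of 40 members, beside 0.674% of genes tested, in the same direction. The call was lost without any one of 10 of the 12 libraries, with DESeq2 size factors, in the 9 stressed libraries alone and with the replicate number as a block (adjusted p = 0.136), its adjusted p running from 2.97e-06 to 0.534 over all alternatives. Aurka (100 counts against 0, at least 15.2-fold higher, adjusted p = 0.0528) and Nusap1 (at least 52.1-fold higher, adjusted p = 0.0544) came next.

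Another 18 members lay above vehicle in all MDMA libraries, 19 in all, beside 16.5% of genes tested; 18 of the 19 were mitosis genes and the other was Mcm5. At an unadjusted p under 0.05, 19 members were higher and 0 lower, beside 13.2% and 3.49%. The median log2 difference was 0.44 for S phase and 7.63 for mitosis genes (4.31 with bounds), beside 0.24 over all genes tested. Without vehicle library 2, 22 members passed, all higher and 17 of them mitosis genes, beside 22.1% of all genes tested in that fit. Without vehicle library 3 the count was 3 (Top2a, Nusap1 and Ccne2), beside 1.88% of genes. DESeq2 called 17 members and limma voom 16, beside 1335 and 889 of all genes tested. The psilocybin and MDMA comparisons share the 3 vehicle libraries, so their likeness is not independent evidence.

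Psilocybin against MDMA compared groups whose files use the same kind of gene identifier and which share no libraries. No member passed (0 of 40 in edgeR, beside 0% of genes tested, and 0 with DESeq2 and with limma voom), and 0 had an unadjusted p under 0.05, beside 0.581%. By sign of the fitted difference 39 of 40 members were lower after psilocybin, beside 48.7% of genes tested, and 11 lay below MDMA without overlap, beside 6.27%. The 11 were Ccne2 and 10 mitosis genes, among them Top2a, Cdk1, Cenpa, Aurka, Ube2c and Smc2. All members were read in the same libraries, so their signs are not separate observations. In CPM, MDMA library 2 lay below every psilocybin library for some members, among them Ccna2, Bub1b, Plk1 and Prc1. Across all members, the median log2 difference was -0.73 for S phase and -1.40 for mitosis genes, beside 0.02 for all. For Top2a it was -1.92 ± 0.97 (SE), for Bub1 -2.52 ± 1.42 and for Birc5 -2.03 ± 1.23, each with an edgeR adjusted p of 1. Psilocybin library 3 narrowed these differences: without it, the Top2a difference was -3.15.

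Against unstressed, psilocybin had no member past the threshold (0 of 40 in edgeR, beside 0.0789% of genes tested). At an unadjusted p under 0.05, 3 members were higher (Cdk1, Nusap1 and Ube2c), beside 3.3%, and 7 lay above without overlap, beside 19%. Over S phase genes the median log2 difference was 0.13, and over mitosis genes 0.17, beside 0.02 for all. Cdk1 differed by 3.42 ± 1.18 (log2, SE; edgeR adjusted p = 0.514), Nusap1 by 2.92 ± 1.23 (adjusted p = 0.722) and Ube2c by 2.77 ± 1.26 (adjusted p = 0.777). Leaving out 1 library at a time moved these from 2.91 to 4.28, from 2.19 to 3.95 and from 1.76 to 4.10. Nusap1 and Ube2c were lowest without psilocybin library 3, and all 3 genes were highest without unstressed library 2. All 3 have more own exon bases in GENCODE than in RefSeq, and the differences are not scaled for this.

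MDMA against unstressed also had no member past the threshold (0 of 40 in edgeR, beside 0.0789%). At an unadjusted p under 0.05, 6 members were higher, beside 2.27% of genes tested. By sign 39 of 40 members were higher, beside 51.8%, and 11 lay above without overlap, beside 10.9%. These counts are not scaled for exon length, and the members' own exon bases had a median ratio of 1.32, GENCODE over RefSeq. Per kb, the unstressed mean was above the MDMA mean for Cenpa, Prc1, Hmmr, Kif23, Mcm2, Mcm3 and Cdt1, and below it for the other members. How far exon length bears on the signs was not tested. Here too the members were read in the same libraries, so their signs are not separate observations. The median log2 difference was 0.68 for S phase and 1.35 for mitosis genes, beside 0.04 for all. Cdk1 differed by 4.51 ± 1.23 (log2, SE; edgeR adjusted p = 0.284), Nusap1 by 4.35 ± 1.31 (adjusted p = 0.358) and Ube2c by 4.32 ± 1.31 (adjusted p = 0.379). The own exon bases in GENCODE and RefSeq were 4934 and 2860 for Cdk1, 3887 and 2842 for Nusap1, and 2008 and 931 for Ube2c. Without vehicle libraries 1 and 3, which are not in this comparison but enter the shared spread and the gene filter, Cdk1, Nusap1, Top2a and Ccne2 passed. Over all 4 groups together no member passed the edgeR test of any difference (0 of 40, beside 0.43%); 16 had an unadjusted p under 0.05, beside 14.3%, of which 15 were mitosis genes, and Top2a was nearest with an adjusted p of 0.0515.

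Markers of other cell types differed between these groups as well. The 10 granulocyte and monocyte precursor genes (Elane, Mpo, Prtn3, Ctsg, Ms4a3, Cebpe, Fcnb, Ltf, Camp and Ngp) summed to 22.87 to 68.53 CPM in unstressed, 116.9 to 169.3 in vehicle, 64.54 to 698.8 in psilocybin and 532.6 to 1961 in MDMA libraries. Psilocybin library 3, with 698.8 CPM, was the psilocybin library with the highest mitosis sum, and MDMA library 3 had the highest value of both. Mpo, a granule enzyme of such precursors, had 494, 59 and 2461 counts after MDMA, 21, 55 and 322 after psilocybin, 0, 21 and 1 in vehicle and 56, 3 and 3 in unstressed. All 10 had a count in both drug groups, 9 of 10 in vehicle (Prtn3 was at 0) and 8 of 10 in unstressed (Ctsg and Ms4a3 were at 0). Of these, the late granule genes Ltf, Camp and Ngp, made up 485.5 to 1550 CPM of the MDMA sums, and the other 7 genes 47.09 to 621.6 CPM. In the sum of all 10 genes, every vehicle library had more than every unstressed one. This order was set by Ltf, Camp and Ngp, with 115.5 to 127.5 CPM in vehicle and 20.33 to 36.14 in unstressed. The other 7 genes overlapped, at 1.471 to 41.76 CPM in vehicle and 2.171 to 32.39 in unstressed. Mitosis sums without Mki67 and Ccnb2 were 2.941 to 74.5 CPM in vehicle and 76.69 to 222 CPM in unstressed. The 8 classical monocyte markers summed to 535 to 642.1 CPM in unstressed, 186.2 to 966.3 in vehicle, 264 to 646.8 in psilocybin and 668.9 to 1382 in MDMA. Fn1 made up 347.7 CPM of the unstressed mean sum of 578.8. It was the only one of the 8 with a lower mean in MDMA (319.9 CPM) than in unstressed. Chil3 had means of 8.344 CPM in unstressed and 291.9 in MDMA, and Ccr2 65.13 and 74.68, so the sum is not an even reading of its genes. Fibroblast markers (8 genes, none at 0 in a group) summed to 3794 to 6288 CPM in unstressed, 777.5 to 8107 in vehicle, 1846 to 3849 in psilocybin and 5932 to 12100 in MDMA. The MDMA mean was above the unstressed one for Col1a1, Col1a2, Dcn and Lum. It was below for Igf2 (20.89 against 247.5 CPM), Col3a1, Pdgfra and Slc6a13. These levels are not scaled for exon length. Mature neutrophil markers (6 genes) had Cxcr2, Mmp8 and Retnlg at 0 in vehicle. In unstressed, vehicle, psilocybin and MDMA these markers summed to 6.478 to 16.88, 15.34 to 40.63, 50.8 to 370 and 97.25 to 729 CPM. Osteoblast markers (7 genes, with Col11a2 at 0 in vehicle) summed to 231.2 to 566.1, 92.35 to 502.3, 204.1 to 304.3 and 378.4 to 680.5 CPM. The part of these cells in the results was not tested.

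**Figure D5:**
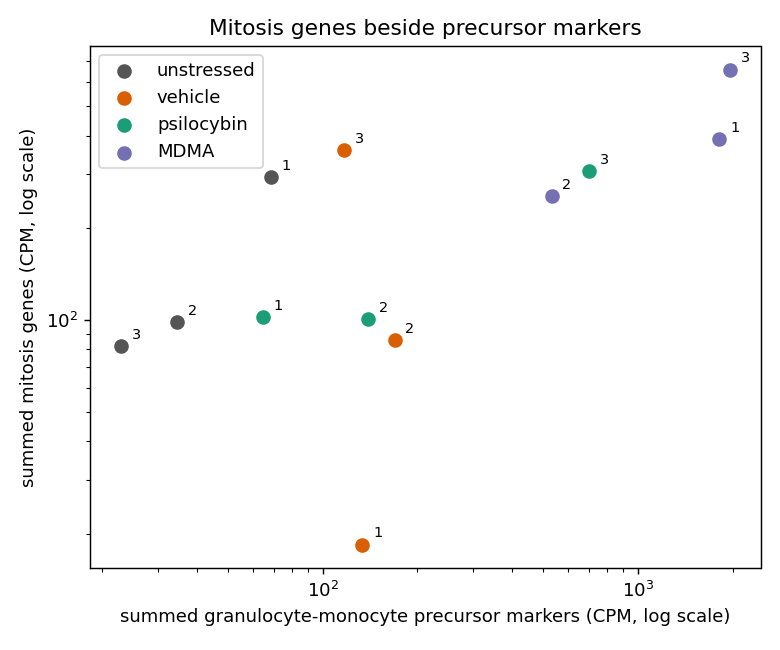
Summed CPM of the 25 mitosis genes (y axis, log scale) against summed CPM of 10 granulocyte and monocyte precursor markers (x axis, log scale), 1 point per library, coloured by group and numbered by replicate. The 3 MDMA libraries and psilocybin library 3 have over 500 CPM of the markers, while unstressed 1 and vehicle 3 have high mitosis sums at 68.53 and 116.9 CPM. In MDMA library 2 the late granule genes Ltf, Camp and Ngp make up 485.5 of 532.6 CPM.

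Other genes of the cycle were read from 4 lists. Of 30 further replication genes 28 were tested, and 2 fell in vehicle against unstressed and 0 rose, beside 3.13% and 0.222% of all genes tested. Rfc4, a subunit of the clamp loader, had 1 count over vehicle against 124 (CPM ratio 59.8, edgeR adjusted p = 0.0496), with 22, 57 and 45 counts in unstressed, 41, 26 and 67 after psilocybin and 58, 57 and 114 after MDMA. Fen1, which trims Okazaki fragments, had 8, 0 and 0 counts in vehicle against 182, 71 and 136 (edgeR adjusted p = 0.0496), but also 4, 1 and 6 after psilocybin and 5, 2 and 10 after MDMA. Its exon bases free of other genes were 383 in GENCODE and 2395 in RefSeq, so Fen1 cannot be compared across the annotations.

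Of 35 further mitosis genes 27 were tested and 1 fell in vehicle against unstressed, which is near the 3.13% of all genes tested: Incenp, the scaffold that holds Aurora B, with 0 counts against 115 (at least 18.5-fold lower, edgeR adjusted p = 0.0433), and 24, 24 and 47 counts after psilocybin and 61, 6 and 151 after MDMA. None of these lists had a call in another comparison. For any difference among groups, Bub3, a checkpoint protein, and Racgap1, a cytokinesis regulator, had the smallest p (edgeR adjusted p = 0.111 and 0.152). Unlike most mitosis members, Bub3 had its highest group mean in CPM in vehicle, with 1767, 160 and 1112 counts there. It had 443, 598 and 609 counts in unstressed, 462, 319 and 657 after psilocybin and 534, 487 and 779 after MDMA. In CPM, vehicle library 2 (180.6) lay below MDMA library 2 (186.5). Bub3 has 7006 own exon bases in GENCODE and 2180 in RefSeq. Racgap1 had 0, 0 and 0 in vehicle, 41, 16 and 14 in unstressed, 18, 17 and 70 after psilocybin and 77, 10 and 184 after MDMA.

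All 16 genes of cell cycle entry and 19 of 20 brakes on the cycle were tested, and none passed in any comparison. The entry genes with the smallest p were the E2F family repressors E2f7 and E2f8 (edgeR adjusted p = 0.175 and 0.262), both at 0 throughout vehicle. Among brakes these were Btg1 (adjusted p = 0.211), an antiproliferative gene, and Rb1 (adjusted p = 0.347), which holds back E2F. Rb1 had 14, 108 and 606 counts in the vehicle libraries. The median log2 difference of brakes was 0.37 in vehicle against unstressed, -0.07 in psilocybin against vehicle and -0.17 in MDMA against vehicle, beside -0.18, 0.31 and 0.24 over all genes tested.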

How the data were processed

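Raw read counts per gene were deposited by the authors for 12 libraries; the submitters' processing notes name STAR 2.7.5c, featureCounts 2.0.1, edgeR 3.42.4, fastp 0.23.2 and the mm10 build. Per the file headers, the unstressed counts came from featureCounts on exons of an mm10 RefSeq annotation, with no strand option. The stressed counts carry Ensembl identifiers, and no header or label states their annotation release or how they were counted. Genes were joined by symbol (26665) or position (910), and 94.8% to 99.092% of each library's counts were in joined genes. The series table holds 9 columns identical to the files and 3 columns of no sample used here.

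From the counts, edgeR 4.0.16 (R 4.3.3) was run with TMM scaling (factors 0.733 to 1.13), filterByExpr and a quasi-likelihood fit of all 12 libraries, and adjusted p-values (Benjamini-Hochberg, threshold 0.05) covered all 13943 genes tested in 6 pairwise comparisons and a test of any difference. CPM are TMM-scaled, SD is over 3 libraries, and SE was derived from the fitted log2 difference and its F statistic. A group at 0 was set to 3 counts over the group for bounds; ratios against 1 to 3 counts carry exact 95% binomial intervals, which cover counting error only. Alternatives used DESeq2 1.42.0, limma 3.58.1 and other filters, libraries and annotations. Scripts were tested on simulated data. Same-numbered psilocybin and vehicle libraries had deviations with r of 0.112, 0.213 and 0.115, all over the cut of 0.1. The other 5 pairs of groups did not meet this rule. The sample titles only number the libraries, so whether any libraries are paired is not known, and the main fit used group only. All 40 members are accounted for; values in every library are given for members past the threshold, the 3 smallest p-values of each comparison and the 4 S phase and 4 mitosis genes highest per kb, and other lists by counts with their called genes or their 2 smallest p-values. Members and lists were chosen with earlier results of these data known. The B lineage marker list is not reported here.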

Additional observations from a re-analysis of the deposited data

How the results depend on the processing

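Low counts limit the vehicle comparisons: most mitosis genes are at 0 there, although the total of vehicle library 1 is within the range of the other groups. Vehicle libraries 1 and 3, which are left out together below, lack 29.2% and 34.2% of genes tested. No result reversed, and psilocybin against MDMA kept 0 members and 0 genes in all alternatives. The cause of the changes below was not tested, except that fewer genes or libraries enter the settings that leave some out.

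With the replicate number as a block, members called went from 1 to 0 for MDMA against vehicle and stayed at 0 elsewhere, and all genes called went from 467 to 10 (vehicle against unstressed), 2 to 0 (psilocybin against vehicle), 94 to 0 (MDMA against vehicle), 11 to 5 (each drug against unstressed) and 60 to 12 (any difference). Only psilocybin and vehicle libraries met the rule of the check on replicate numbers, which does not establish a pairing. Between vehicle and unstressed 5 of 6 libraries correlated best with their own number, and between MDMA and vehicle 2 of 6.

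Members called by DESeq2 and by limma voom were 8 and 3 (vehicle against unstressed), 11 and 7 (psilocybin against vehicle), 17 and 16 (MDMA against vehicle), 4 and 2 (MDMA against unstressed) and 14 and 7 (any difference). All genes called by the same tools were 1746 and 1409, 1056 and 438, 1335 and 889, 217 and 142, and 1419 and 829 in that order, with 239 and 116 for psilocybin against unstressed. With no filter on low counts, members were 2 for MDMA against vehicle and 2 for any difference, and genes were 290 (vehicle against unstressed), 7 (psilocybin against vehicle), 47 and 61 (psilocybin and MDMA against unstressed) and 275 (any difference). With at least 5 CPM in 3 libraries, members were 3 and 1 for MDMA against vehicle and any difference. DESeq2 size factors gave 0 members for MDMA against vehicle and 255, 0 and 3 genes for vehicle against unstressed, psilocybin and MDMA against vehicle.

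Only the libraries compared gave 0 genes in each comparison with vehicle, 0 members for MDMA against vehicle, 1 and 2 members and 1379 and 236 genes for psilocybin and MDMA against unstressed. Only the 9 stressed libraries gave 0 members for MDMA against vehicle and 0 genes for both drugs against vehicle. Only genes with nearly the same exons gave 0 members and 16 genes for MDMA against vehicle, 25 genes for vehicle against unstressed and 0 for each drug against unstressed and for any difference, with S phase sums of 111.1, 62.83, 106.3 and 160.9 CPM (unstressed, vehicle, psilocybin, MDMA) and an MDMA mitosis sum of 144.6 CPM.

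Without vehicle libraries 1 and 3, where the lone vehicle library is assumed to vary like the other groups, members were 1 (Mcm6) for vehicle against unstressed, 0 for MDMA against vehicle, 1 and 4 for psilocybin and MDMA against unstressed and 5 for any difference, and genes were 0 and 0 for psilocybin and MDMA against vehicle, 756 and 415 against unstressed and 570 for any difference. Leaving out each library in turn, members called ranged from 0 to 10 (vehicle against unstressed), 0 to 15 (psilocybin against vehicle), 0 to 22 (MDMA against vehicle), 0 to 1 (MDMA against unstressed) and 0 to 9 (any difference), and genes called from 8 to 3663, 0 to 3535, 0 to 3615, 2 to 96 and 9 to 2476 in that order, and from 3 to 118 for psilocybin against unstressed; the highest counts came without vehicle library 2, or, against unstressed for both drugs, without vehicle library 3.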
